A study of Mus musculus with 24 samples.

Results

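The ERK pathway feedback genes examined here are 10 transcripts that cells commonly make in response to ERK signalling, namely Dusp4, Dusp5, Dusp6, Spry1, Spry2, Spry4, Errfi1, Etv4, Etv5 and Phlda1. They were listed by name as a readout of ERK activity, which Dsg1 has been described to restrain. All 10 were present among the 54087 gene symbols of the deposited count table, and all 10 were among the 17094 genes with enough counts to be tested. In Dsg1-null skin, Dusp4 was 1.70-fold and Phlda1 1.28-fold their wild-type levels, but with adjusted p-values of 0.105 and 0.104 both fell just short of the 0.1 threshold. In the main fit, made with edgeR, none of the 10 transcripts passed it in any comparison of genotypes. That fit summed 2 wild-type libraries that cannot be from the same embryo. With these 2 apart, Dusp4 (adjusted p = 0.0543 in edgeR) and Phlda1 (0.0553) passed the threshold in null against wild-type skin, among 1195 of all genes. With DESeq2, an alternative method, Dusp4 (adjusted p = 0.0201) and Phlda1 (0.0191) passed the threshold in the same comparison, among 1444 of all genes. The main fit had 197. Dusp6 and Spry1 differed least between Dsg1-null and wild-type skin, and Spry2 was lower rather than higher in the null skin, with an adjusted p of 0.178.

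ERK is the last kinase of a chain in which receptor tyrosine kinases, such as the EGF and FGF receptors, activate Ras, the Raf kinases and MEK. Active ERK induces, among others, genes whose products damp the same chain: dual-specificity phosphatases (Dusp) that dephosphorylate ERK and related kinases, Sprouty proteins (Spry) that act between receptor and Ras, and Errfi1, which binds and inhibits EGF receptor family kinases. Their transcripts are therefore often read as a sign of how active the pathway is, and in epidermis ERK signalling is known for its part in the balance between keratinocyte proliferation and differentiation. Dsg1, desmoglein 1, is a desmosomal cadherin of the upper epidermal layers that has been linked to lower ERK signalling through its partner Erbin.

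RNA-Seq was made from flash-frozen dorsal skin of mouse embryos at E18.5. The 3 genotypes were wild type (WT, Dsg1+/+), heterozygous (HET, Dsg1+/-) and null (KO, Dsg1-/-), where the mutant allele is a CRISPR/Cas9 deletion of the tandem Dsg1c, Dsg1a and Dsg1b genes. All mutant alleles go back to 1 founder, on a C57BL/6 background, the deletion is present in every cell type, and both sexes were used. There were 24 libraries, 8 per genotype, which were added up by the number in their titles into 15 columns, 5 replicates per genotype. The tissue is whole skin, so fewer cells of a type and less RNA per cell cannot be told apart. The labels do not say which libraries come from separate embryos, so p-values measure the spread between these columns.

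Column totals ranged from 15.3 M to 33.7 M counts, with a median of 26.8 M. Summed Dsg1a, Dsg1b and Dsg1c stood at 806 ± 112 CPM (counts scaled to a common library size, SD, n = 5) in WT, 422 ± 51.5 in HET and 0.548 ± 0.343 in KO. HET and KO were thus at 52.3% and 0.0680% of the WT mean, and each differed from WT with a 2-sided exact permutation p of 0.00794, the smallest that 5 against 5 columns can give. Of the 9 title numbers with 2 libraries, 8 had both libraries on the same side in Xist and Y-linked transcripts. The exception was WT replicate 2. Of its 2 libraries, the first had 325 CPM of Y-linked transcripts and 0.264 CPM of Xist, and the second 0.154 and 564 CPM. They thus cannot be from the same embryo, although they were summed. In the 10 transcripts they differed by a median of 0.06 and by at most 0.24 on the log2 scale. With them apart, the KO vs WT adjusted p in edgeR was 0.0543 for Dusp4 and 0.0553 for Phlda1, both past the threshold. In that fit 1195 of all genes passed, where the main fit had 197. Skin was represented by its defining markers, with none of the 8 keratinocyte and 8 dermal fibroblast markers at 0 in all replicates of a genotype.

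In WT skin, levels per kilobase of exon (RPKM-like, CPM divided by exon length) fell into a higher and a lower set. Dusp6, a cytoplasmic phosphatase that prefers ERK, was highest at 21.8 ± 1.06 (SD, n = 5). It was followed by Spry1 at 19.5 ± 3.53, Spry2 at 17.2 ± 3.89 and Errfi1 at 16.0 ± 2.88. Phlda1 stood at 7.88 ± 0.864, and the 5 WT replicates of Errfi1 all lay above all 5 of Phlda1. Then came Dusp5 at 5.54 ± 1.68, Etv4 at 5.10 ± 0.860, Dusp4 at 4.09 ± 0.533, Etv5 at 3.73 ± 0.243 and Spry4 at 3.71 ± 0.543. Apart from Errfi1 and Phlda1, the WT ranges of neighbours in this order overlapped. Every member had at least 151 counts in every column.

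**Figure D1:**
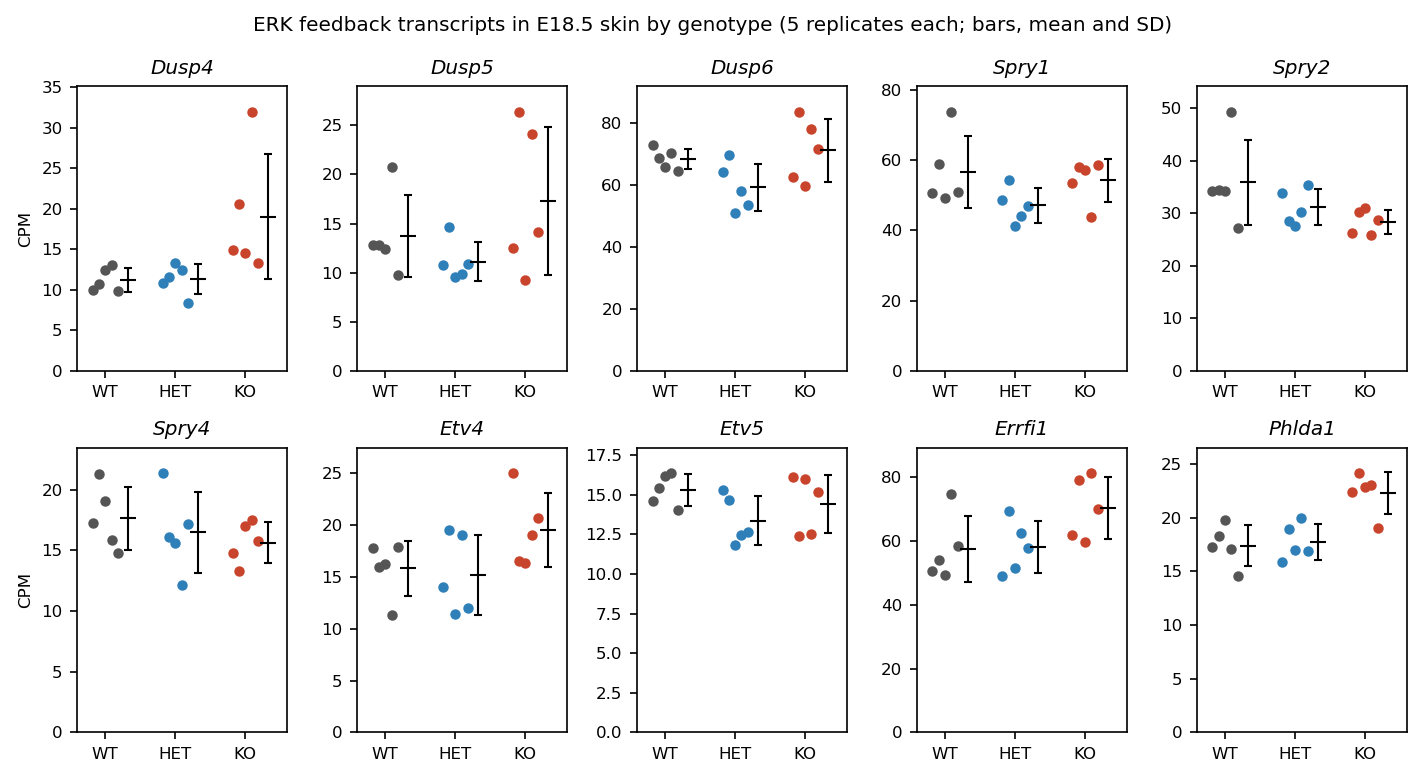
CPM (vertical axes, from 0) of the 10 transcripts in each of the 5 WT, 5 HET and 5 KO replicates (points, replicate 1 to 5 from left to right), with mean and SD as a bar. KO replicates lie above every WT replicate only for Dusp4, and KO replicates 2 and 4 are the highest for both Dusp4 and Dusp5.

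Of the 3 phosphatases, 0 passed the threshold in KO vs WT, and all had fitted values above 0. Dusp4, a nuclear phosphatase of ERK and related MAP kinases, was at 9.95, 10.7, 12.4, 13.1 and 9.87 CPM in WT replicates 1 to 5. The HET replicates had 10.9, 11.6, 13.3, 12.4 and 8.42 CPM. In KO the values were 14.9, 20.6, 14.5, 31.97 and 13.3 CPM. All 5 KO replicates were above all 5 WT replicates, with KO replicate 5 only just outside the WT and HET ranges and KO replicate 4 far above the rest. The fit across all genes gave a KO vs WT log2 fold change of 0.76 ± 0.21 (SE), a 1.70-fold higher level with a 95% interval of 1.25 to 2.30, at an unadjusted p of 0.00204 and an adjusted p of 0.105 (edgeR quasi-likelihood test, Benjamini-Hochberg). Without KO replicate 4 the log2 fold change was 0.50, with an adjusted p of 0.226. The adjusted p was at or below 0.1 without WT replicate 4 (0.0595), without KO replicate 3 (0.0743) or without KO replicate 5 (0.0442), and 0.102 to 0.226 without any 1 other column.

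Dusp5, a nuclear phosphatase selective for ERK, ranged more widely within each genotype. It had 12.8, 12.8, 12.4, 20.8 and 9.72 CPM in WT, 10.7, 14.6, 9.60, 9.82 and 10.9 CPM in HET, and 12.5, 26.4, 9.24, 24.2 and 14.1 CPM in KO. KO replicates 2 and 4 were the highest of all 15 columns, while KO replicate 3 was the lowest, so the groups overlapped throughout. In KO vs WT the fit gave a log2 value of 0.33 ± 0.26 (SE, adjusted p = 0.491), and it was 0.53 without WT replicate 4, 0.13 without KO replicate 2 and 0.18 without KO replicate 4. Dusp6 was at 72.8, 68.6, 65.8, 70.2 and 64.7 CPM in WT and at 62.5, 83.6, 59.7, 78.2 and 71.7 CPM in KO. Its KO replicates straddled the WT range, 2 above and 2 below it, and the log2 fold change was 0.057 ± 0.10 (SE, adjusted p = 0.779), with a 95% interval of the fold from 0.895 to 1.21.

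The Sprouty transcripts were lower in KO on the fitted scale, none of them past the threshold. Spry2 had 34.3, 34.5, 34.3, 49.3 and 27.1 CPM in WT, 33.9, 28.5, 27.5, 30.3 and 35.5 CPM in HET and 26.2, 30.2, 30.98, 25.9 and 28.8 CPM in KO. Apart from WT replicate 5, which fell among the KO values, the WT replicates were above all KO replicates. The log2 fold change of KO vs WT was -0.34 ± 0.13 (SE), at an unadjusted p of 0.0175 and an adjusted p of 0.178. Without WT replicate 4, the highest column, it was -0.20, with an adjusted p of 0.247. Spry4 was at a median of 17.3 CPM in WT (14.8 to 21.3) and 15.8 CPM in KO (13.3 to 17.5), and its log2 fold change was -0.18 ± 0.14 (SE, adjusted p = 0.479). Spry1 was at a median of 50.8 CPM in WT (49.0 to 73.6) and 57.1 CPM in KO (43.9 to 58.4), with a fitted change of -0.064 ± 0.12 (SE, adjusted p = 0.782). The median of Spry1 was higher in KO and its fitted change negative, and without WT replicate 4, the highest column, the change was 0.049.

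Errfi1 had 50.7, 54.0, 49.2, 74.8 and 58.5 CPM in WT, 49.1, 69.2, 51.5, 62.5 and 57.7 CPM in HET and 61.8, 79.2, 59.7, 81.1 and 70.1 CPM in KO. Every KO replicate was above 4 of the 5 WT replicates, and WT replicate 4 lay among the KO values. For KO vs WT the log2 fold change was 0.29 ± 0.13 (SE), at an unadjusted p of 0.0365 and an adjusted p of 0.232. Leaving out WT replicate 4 gave 0.41 and an adjusted p of 0.0639.

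Phlda1 encodes a pleckstrin homology-like domain protein. It had the smallest p of the set. Its values were 17.3, 18.3, 19.8, 17.1 and 14.6 CPM in WT, 15.9, 18.9, 17.0, 19.97 and 16.9 CPM in HET, and 22.4, 24.1, 22.9, 23.03 and 19.04 CPM in KO. Only KO replicate 5 was within the WT and HET ranges. The log2 fold change of KO vs WT was 0.36 ± 0.10 (SE), a 1.28-fold higher level with a 95% interval of 1.11 to 1.48, at an unadjusted p of 0.00198 and an adjusted p of 0.104. The adjusted p was 0.0717 without WT replicate 4, 0.0931 without HET replicate 4 and 0.0442 without KO replicate 5. Without any 1 other column it was 0.106 to 0.226.

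Etv4 and Etv5 are ETS family transcription factors that respond to FGF receptor signalling. Etv4 was at a median of 16.3 CPM in WT (11.3 to 17.9) and 19.02 CPM in KO (16.3 to 24.98). The log2 fold change of Etv4 was 0.30 ± 0.17 (SE, adjusted p = 0.336), with 3 KO replicates above every WT replicate. Etv5 was at a median of 15.4 CPM in WT (14.0 to 16.3) and 15.1 CPM in KO (12.4 to 16.1), and it changed by -0.086 ± 0.10 (SE, adjusted p = 0.666). The 95% interval of the fold was 0.958 to 1.59 for Etv4 and 0.808 to 1.099 for Etv5, both including 1.

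Across the set, 0 of 10 members passed the adjusted threshold in KO vs WT, where 1.15% of all tested genes did. DESeq2 put Dusp4 (adjusted p = 0.0201) and Phlda1 (0.0191) past it, among 1444 of all genes, and limma-voom Phlda1 alone (0.0932), among 506. The edgeR count was 197. By unadjusted p below 0.05, 3 members were higher (Dusp4, Phlda1 and Errfi1) against 10.1% of all tested genes, and 1 was lower (Spry2) against 9.18%. The groups did not overlap in CPM for 1 member, Dusp4, against 3.37% of all tested genes. The median log2 fold change over the members was 0.17, beside -0.0095 over all tested genes, with 6 members higher and 4 lower. Of all tested genes 48.6% were higher. Fitted values of the members ran from -0.34 for Spry2 to 0.76 for Dusp4, on both sides of 0. Differences between members were not tested. The library titles come in a longer and a shorter form. Within the 15 libraries of the longer form the log2 fold change was 0.83 (adjusted p = 0.0859) for Dusp4 and 0.34 (0.108) for Phlda1, and within the 9 of the shorter form it was 0.39 (0.567) and 0.33 (0.551). With Y-linked transcripts as a covariate it was 0.74 (0.167) and 0.36 (0.158).

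**Figure D2:**
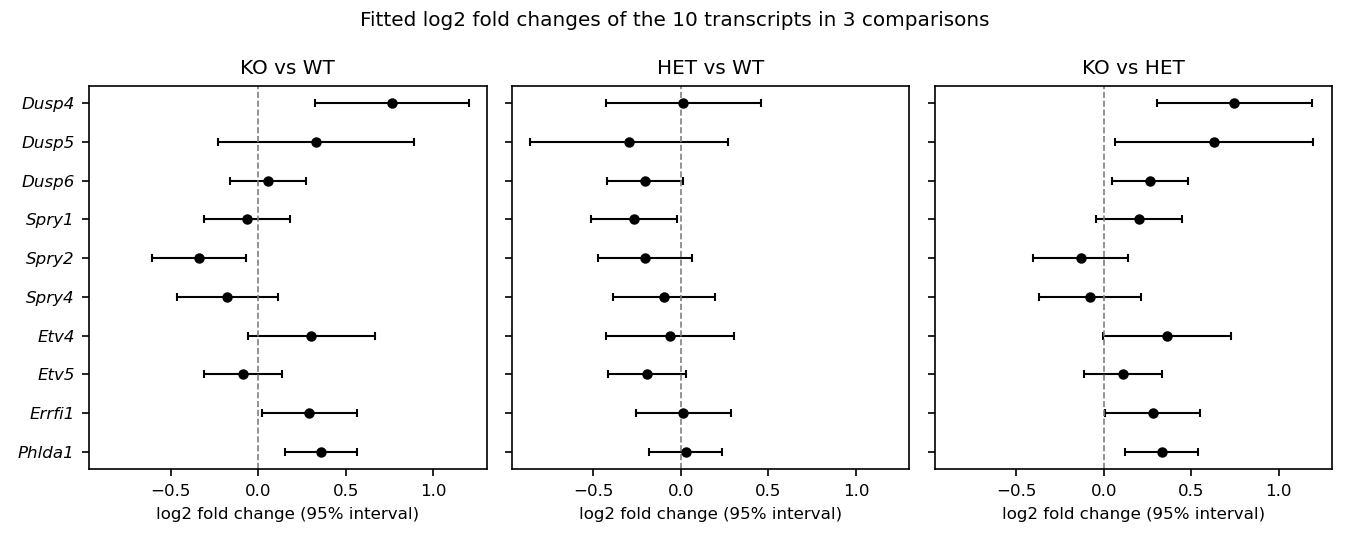
Fitted log2 fold changes (horizontal axis) of the 10 transcripts with 95% intervals (bars) in KO vs WT, HET vs WT and KO vs HET. Dusp4 lies farthest to the right in KO vs WT at 0.76 and in KO vs HET at 0.75, and the HET vs WT intervals include 0 except that of Spry1.

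In heterozygous skin, the 3 members that were higher in KO by unadjusted p stayed near their WT levels. In HET vs WT the log2 fold changes were 0.014 ± 0.21 (SE) for Dusp4, 0.013 ± 0.13 for Errfi1 and 0.027 ± 0.10 for Phlda1. The 95% interval of the fold was 0.744 to 1.37 for Dusp4, 0.836 to 1.22 for Errfi1 and 0.883 to 1.18 for Phlda1. Of the 10 members, 0 passed the adjusted threshold in edgeR, as did 0% of all tested genes, and 0 members passed it with DESeq2 or limma-voom. By unadjusted p below 0.05, 0 members were higher against 0.825% of all tested genes. Spry1 was the 1 member lower against 0.755%, at -0.27 ± 0.12 (SE), with an unadjusted p of 0.0358 and an adjusted p of 1.00 in edgeR. In Spry1, the HET values of 48.7, 54.2, 41.2, 44.1 and 46.995 CPM lay below the lowest WT value of 49.0 CPM in 4 of 5 replicates. Dusp6 was also below all WT replicates in 4 of 5 HET replicates (64.2, 69.6, 51.1, 58.0 and 53.4 CPM). It differed from WT by -0.21 ± 0.10 on the log2 scale (SE), with an unadjusted p of 0.0615 and an adjusted p of 1.00 in edgeR. No member had separate groups, against 0.374% of all tested genes, and the median over the members was -0.15, with 3 higher and 7 lower. Over all tested genes 50.9% were higher, with a median of 0.0024.

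KO vs HET shares the KO columns with the first comparison and the HET columns with the second, so it is no independent repeat of either. Here 8 members were higher and 2, Spry2 and Spry4, lower, with a median of 0.27. Over all tested genes 49.3% were higher, with a median of -0.0040. In edgeR 0 members passed the adjusted threshold, against 0.333% of all tested genes, and in limma-voom 0. By unadjusted p below 0.05, 5 members were higher against 8.17% of all tested genes, and 0 were lower against 7.87%. These were Dusp4 at 0.75 ± 0.21 (SE, adjusted p = 0.152), Phlda1 at 0.33 ± 0.10 (adjusted p = 0.159), Dusp6 at 0.26 ± 0.10 (adjusted p = 0.238), Dusp5 at 0.63 ± 0.27 (adjusted p = 0.269) and Errfi1 at 0.28 ± 0.13 (adjusted p = 0.301), all in edgeR. All 3 phosphatases were thus among them. Dusp4 was the 1 member whose groups did not overlap, against 2.25% of all tested genes. DESeq2 put Dusp4 (adjusted p = 0.0313) and Phlda1 (0.0439) past the threshold, among 787 of all genes, where edgeR had 57. Without KO replicate 5 edgeR gave adjusted p-values of 0.0666 for Dusp4 and 0.0748 for Phlda1, and without KO replicate 3 it gave 0.0969 for Dusp4. Without KO replicate 4 Dusp4 was at 0.48 (adjusted p = 0.297), and Phlda1 had an adjusted p of 0.311.

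Apart from genotype, 2 of the 45 pairs of members varied together by Pearson correlation and 0 by rank. Once genotype means were removed, these pairs gave Pearson correlations of log2 CPM from -0.61 to 0.79 over the 15 columns, with a median of 0.13 and 26 of them positive. Dusp5 and Dusp6 had r = 0.79 (permutation p = 0.00094, adjusted over the 45 pairs 0.0423) and a Spearman rho of 0.80 (permutation p = 0.00300, adjusted 0.135). Without the 2 columns farthest from the median of Dusp5, r was 0.65. Dusp5 and Errfi1 had r = 0.76 (permutation p = 0.00320, adjusted 0.0720) and a rho of 0.56 (permutation p = 0.0474, adjusted 0.597), and r was 0.73 without the 2 farthest columns. No other pair had an adjusted p of 0.1 or below, and by rank no pair did. Spry1 and Spry2 had r = 0.69 (permutation p = 0.0235, adjusted 0.283), and Spry2 and Etv4 had the lowest value, -0.61 (permutation p = 0.0251, adjusted 0.283). All values of a column share its library and depth. In each genotype the column highest in Dusp5 was also highest in summed keratinocyte markers. These were WT replicate 4 (80990 CPM), HET replicate 2 (76762 CPM) and KO replicate 2 (104277 CPM). Errfi1 was highest in the same WT and HET replicates, but in KO it was highest in replicate 4. The part of cell make-up in these pairs was not tested.

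**Figure D3:**
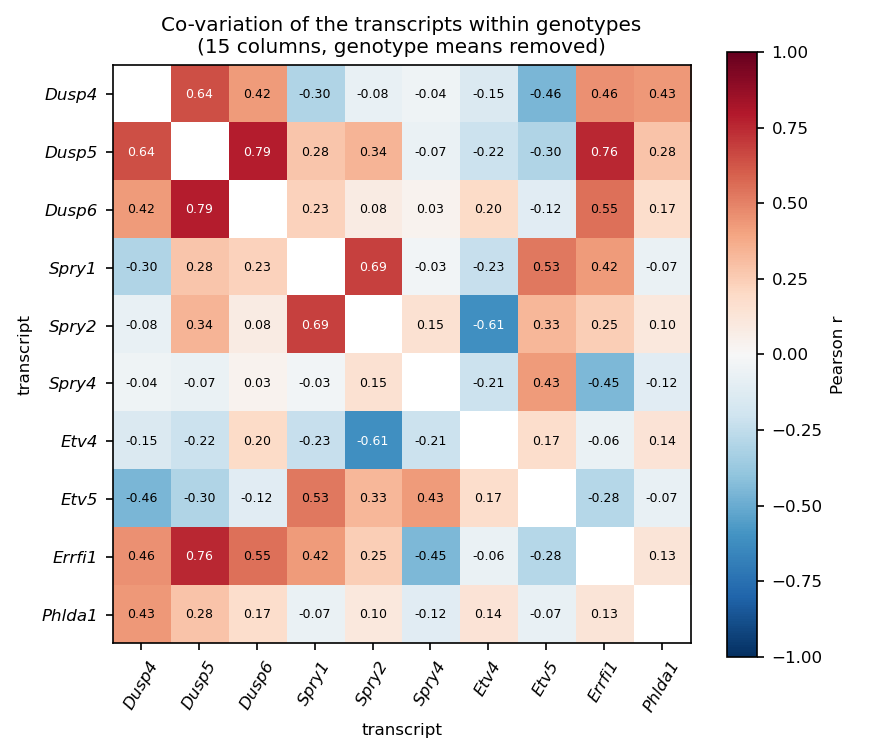
Pearson r (colour and printed value) between each pair of the 10 transcripts over 15 columns after removal of genotype means. The highest value is 0.79 for Dusp5 and Dusp6, followed by 0.76 for Dusp5 and Errfi1, and the lowest is -0.61 for Spry2 and Etv4.

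The promoters of Dusp5, Dusp6 and Errfi1 are shown because these members form the 2 pairs that passed by Pearson correlation. Dusp6 and Errfi1 themselves had r = 0.55 (permutation p = 0.0408, adjusted 0.306). They are RefSeq sequences of GRCm38.p6, with 250 bases before and 50 after each transcription start. An entry was found for 6 of the 10 members, 8 entries in all, and Dusp4, Spry4, Etv4 and Phlda1 had none. All 3 are on the plus strand and are written 5′ to 3′, with Dusp5 at chr19:53528895-53529194, Dusp6 at chr10:99262981-99263280 and the downstream of the 2 Errfi1 entries at chr4:150854820-150855119. Capitals mark matches to any of the 4 motifs searched.
Dusp5: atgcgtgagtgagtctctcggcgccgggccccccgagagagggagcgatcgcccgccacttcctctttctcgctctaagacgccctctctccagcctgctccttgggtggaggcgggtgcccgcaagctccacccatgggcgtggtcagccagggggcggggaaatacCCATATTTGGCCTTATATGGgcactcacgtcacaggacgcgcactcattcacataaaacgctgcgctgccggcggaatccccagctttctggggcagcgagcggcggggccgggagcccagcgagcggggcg
Dusp6: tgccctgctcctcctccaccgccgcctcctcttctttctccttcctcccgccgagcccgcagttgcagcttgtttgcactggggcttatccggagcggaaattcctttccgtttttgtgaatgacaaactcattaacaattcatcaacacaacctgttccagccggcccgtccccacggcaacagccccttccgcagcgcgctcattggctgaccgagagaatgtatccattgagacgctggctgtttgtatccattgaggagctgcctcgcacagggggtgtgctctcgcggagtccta
Errfi1: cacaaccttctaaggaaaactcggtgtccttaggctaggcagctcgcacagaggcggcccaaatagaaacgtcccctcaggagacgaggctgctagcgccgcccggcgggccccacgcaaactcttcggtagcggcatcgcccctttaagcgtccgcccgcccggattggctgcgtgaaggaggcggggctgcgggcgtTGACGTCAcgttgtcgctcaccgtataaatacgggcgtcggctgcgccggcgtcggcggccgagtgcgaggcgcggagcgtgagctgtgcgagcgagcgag

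The search covered both strands for 4 motifs: an ETS motif (CCGGAAG), an AP-1 motif (TGANTCA), the cAMP response element (TGACGTCA) and the CArG box, the sequence that serum response factor binds. These motifs do not contain one another, although matches may overlap. The Dusp5 promoter held a pair of adjacent CArG boxes, at -82 to -73 and -72 to -63 counted from the start site, whereas 1.63% of all 32851 promoters held at least 1. The Errfi1 promoter shown held a cAMP response element at -51 to -44, found in 1.79% of all promoters. Neither motif was found in the Dusp6 window, nor in those of Spry1, Spry2 and Etv5. ETS and AP-1 motif matches were in 0 of the 8 entries, against 8.86% and 7.81% of all promoters. A match is a run of letters and says nothing here about binding.

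The other genes of the pathway were looked at by lists of known roles. These lists were chosen with earlier results of these data known, so counts within them are no independent support. Among 15 relatives of the members, 14 were in the table and tested. In KO vs WT 3 of the 14 were higher at an unadjusted p below 0.05, against 10.1% of all tested genes. By the same measure 0 were lower, against 9.18%. Their log2 fold changes were above 0 for 7 and below 0 for 7, with a median of -0.036. Dusp7, a cytoplasmic ERK phosphatase like Dusp6, rose past the threshold. It was at 80.5, 86.1, 91.2, 101 and 97.4 CPM in WT and at 132, 134, 112, 125 and 98.6 CPM in KO. The log2 fold change was 0.40 ± 0.10 (SE, adjusted p = 0.0978 in edgeR), with only KO replicate 5 within the WT range. It did not pass without any 1 of WT replicates 1, 2, 3 and 5, HET replicates 1, 2, 3 and 5 or KO replicates 1, 2 and 4, where the adjusted p ran from 0.107 to 0.219. Nor did it pass with the keratinocyte covariate (0.24, adjusted p = 0.277), the fibroblast covariate (0.137), the Y-linked covariate (0.158), only the 2 genotypes in the fit (0.197) or the 9 libraries of the shorter title form (0.551). Dusp16, which acts mainly on the related kinases JNK and p38, was at 0.39 ± 0.10 on the same scale (SE, adjusted p = 0.102). The Sprouty relative Spred2, an inhibitor of Ras signalling, had 0.35 ± 0.11 (SE, adjusted p = 0.128).

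Of 19 EGF family ligands and growth factor receptors, 5 were higher in KO vs WT by unadjusted p below 0.05, against 10.1% of all tested genes. By the same measure 0 were lower, against 9.18%, and 0 passed the adjusted threshold. Hbegf, an EGF receptor ligand, was at 7.04, 8.43, 6.51, 7.24 and 6.95 CPM in WT and at 11, 15.6, 9.15, 14.0 and 8.47 CPM in KO. The KO values were all above the WT values, KO replicate 5 barely. Groups did not overlap, in either direction, for 3.37% of all tested genes. The log2 fold change of Hbegf was 0.69 ± 0.18 (SE, adjusted p = 0.102). Ereg, another ligand of the family, was at 9.65, 12.8, 14.5, 5.57 and 11.4 CPM in WT and at 23.98, 52.7, 10.2, 52.6 and 16.7 CPM in KO. KO replicates 2 and 4 stood out here as they did for Dusp4 and Dusp5, and the log2 fold change was 1.53 ± 0.41 (SE, adjusted p = 0.105). The ligand Epgn had 1.06 ± 0.38 (SE, adjusted p = 0.164). The median over the list was 0.087, with 10 above and 9 below 0.

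Of 22 components from receptor adaptors to ERK, 5 were higher by unadjusted p below 0.05, against 10.1% of all tested genes. By the same measure 0 were lower, against 9.18%. The median was 0.092, and 0 were past the adjusted threshold. Ptpn11, the phosphatase SHP2 that passes receptor signals on to Ras, had all KO replicates (226, 178, 184, 219 and 173 CPM) above all WT replicates (158, 166, 161, 160 and 169 CPM). Groups did not overlap, in either direction, for 3.37% of all tested genes. The log2 fold change of Ptpn11 was 0.27 ± 0.08 (SE, adjusted p = 0.113). Braf, a Raf kinase, had 0.27 ± 0.11 (SE, adjusted p = 0.198), and Erbin, listed in the table under its older symbol Erbb2ip, had 0.26 ± 0.10 (SE, adjusted p = 0.202).

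Of 20 other transcripts known to follow ERK activity, 5 were higher by unadjusted p below 0.05, against 10.1% of all tested genes. By the same measure 0 were lower, against 9.18%. Of the 20, 14 were above and 6 below 0, with a median of 0.086. Fosl1, an AP-1 subunit whose transcript and protein respond to ERK, rose past both the adjusted p of 0.1 and a log2 fold change of 1. Being low in counts, it was not kept by the alternative filter of a mean of at least 50 counts. It was at 1.12, 1.07, 1.17, 1.06 and 1.11 CPM in WT, 0.976, 1.04, 1.14, 1.04 and 1.44 CPM in HET and 1.47, 3.06, 1.404, 4.32 and 2.95 CPM in KO. All KO values were above the WT values, where groups did not overlap, in either direction, for 3.37% of all tested genes. The highest KO values were again in replicates 4 and 2. The log2 fold change of KO vs WT was 1.24 ± 0.27 (SE, adjusted p = 0.0740) in edgeR. In KO vs WT the adjusted p was 0.137 without WT replicate 1, 0.178 without WT replicate 2, 0.161 without WT replicate 3, 0.132 without WT replicate 5, 0.101 without HET replicate 3 and 0.176 without KO replicate 4. It was 0.141 with the Y-linked covariate, 0.137 with the fibroblast covariate, 0.167 with the keratinocyte covariate, 0.196 with only the 2 genotypes in the fit and 0.551 with the 9 libraries of the shorter title form. The immediate early transcription factors Egr1 and Egr3 had log2 fold changes of 1.31 ± 0.37 (SE, adjusted p = 0.111) and 0.62 ± 0.19 (SE, adjusted p = 0.120). Egr1 was at 27.02, 38.2, 31.2, 15.8 and 17.1 CPM in WT and 80.7, 84.8, 32.6, 89.4 and 34.8 CPM in KO, where replicates 3 and 5 fell within the WT range.

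**Figure D4:**
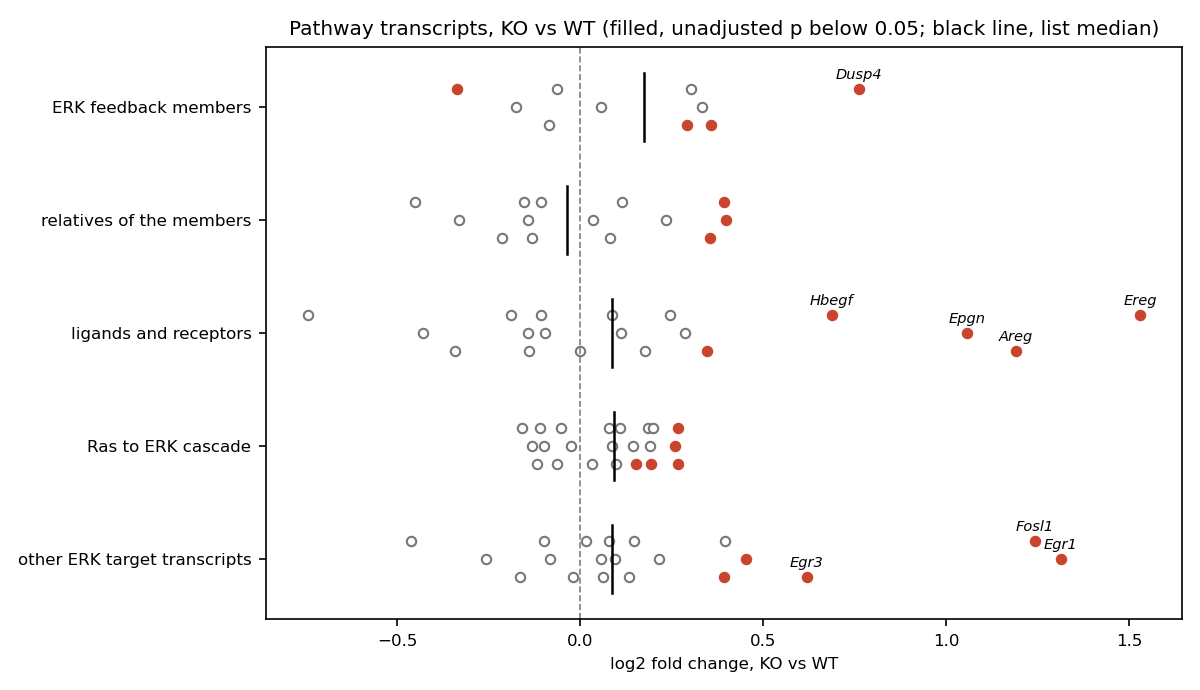
Log2 fold changes of KO vs WT (horizontal axis) for the members and 4 lists of other pathway transcripts, with filled points for an unadjusted p below 0.05 and a black line at each list's median. Filled points lie to the right of 0 apart from Spry2 among the members, and the largest are Ereg at 1.53, Egr1 at 1.31 and Fosl1 at 1.24.

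Markers of cell types moved with some of these values. The summed level of 8 keratinocyte markers was 58819 to 80990 CPM in WT and 70876 to 104277 CPM in KO, with KO replicate 2 the highest. The 8 dermal fibroblast markers summed to 22815 to 36991 CPM in WT and 14897 to 29900 CPM in KO, with KO replicate 4 the lowest and WT replicate 4 the highest. In KO vs WT, 7 of the 8 keratinocyte markers had higher and 8 of the 8 fibroblast markers lower fitted values, and 0 of these markers passed the adjusted threshold. Neutrophil markers summed to 6.31 to 9.45 CPM in WT and 5.98 to 22.8 CPM in KO, and adipocyte markers to 36.9 to 320 and 119 to 1646 CPM. Among the KO columns the adipocyte sum was highest in replicates 4 (1646 CPM) and 2 (837 CPM). Skeletal muscle markers summed to 13784 to 23036 CPM in WT and 10136 to 20214 CPM in KO. Among the KO columns the muscle sum was lowest in replicates 2 (10136 CPM) and 4 (13285 CPM). The 7 erythroid markers, all with higher fitted values in KO vs WT, summed to 1652 to 5154 CPM in WT and 3106 to 9045 CPM in KO, with KO replicate 3 the highest. With the keratinocyte sum as a covariate, chosen after the data were seen, the KO vs WT log2 fold change was 0.66 for Dusp4, 0.29 for Phlda1, 0.11 for Errfi1 and -0.030 for Dusp5. With the fibroblast sum it was 0.55 for Dusp4, 0.33 for Phlda1, 0.26 for Errfi1 and -0.21 for Spry2. With the skeletal muscle sum it was 0.65 for Dusp4, 0.35 for Phlda1, 0.24 for Errfi1 and 0.14 for Dusp5. For Ereg and Fosl1 the muscle covariate gave 1.21 and 1.11. With the keratinocyte or fibroblast sum, Dusp4 and Phlda1 had adjusted p-values from 0.151 to 0.331. With the skeletal muscle sum these were 0.0889 and 0.0934. A shift of the keratinocyte or fibroblast markers with genotype was not established, as 0 passed the adjusted threshold and WT and KO sums overlapped. Fitted KO vs WT values were still above 0 for 7 of 8 keratinocyte markers and below 0 for 8 of 8 fibroblast markers. The keratinocyte and fibroblast covariates thus cannot separate cell make-up from genotype. In KO vs HET the keratinocyte covariate gave 0.61 for Dusp4, 0.26 for Phlda1, 0.15 for Dusp6, 0.19 for Dusp5 and 0.055 for Errfi1. The part of cell make-up in these results, neutrophil, adipocyte and erythroid cells included, was not tested.

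The genes whose levels most resembled Phlda1, the member with the smallest p, were Adgrg2, Dcaf12, Grhl3, Lpar2 and Rnpepl1, with Pearson r from 0.85 to 0.91 over the 15 columns of all genotypes. Grhl3, an epidermal transcription factor, was at a mean of 54.5 CPM in WT and 92.4 CPM in KO, with an adjusted p of 0.0184. This is a description of likeness over the same columns, genotype differences included.

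**Figure D5:**
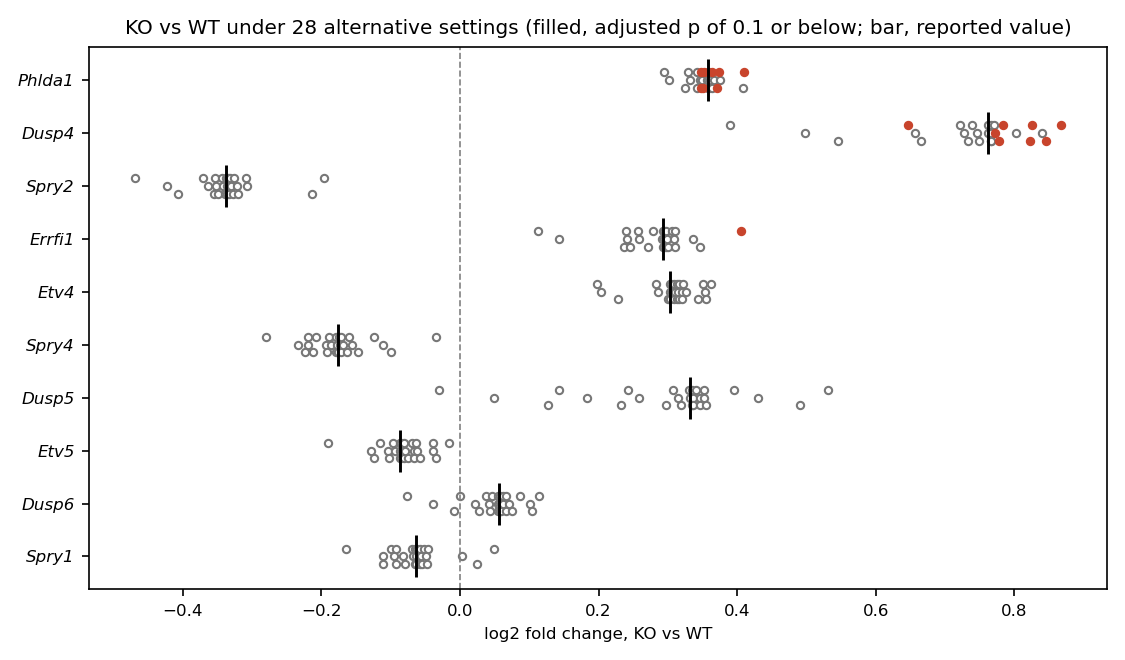
Log2 fold change of KO vs WT (horizontal axis) for each member under 28 alternative settings (points, filled where the adjusted p was 0.1 or below) and as reported (bar). Dusp4 and Phlda1 each have 8 filled points and stay above 0 throughout, Errfi1 has 1, and the points of Dusp5, Dusp6 and Spry1 cross 0.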

How the data were processed

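Raw read counts per gene symbol were deposited by the authors in 1 table with a column for each of 24 libraries of poly(A) RNA (directional kit). The submitters' processing notes name STAR and HTSeq and list the build hg19, although the symbols are those of mouse; versions, annotation and strand setting are not given in the sources used here, so overlapping antisense reads may be mixed in. Libraries sharing a title number and genotype were added up (15 columns, 5 per genotype). Counts were filtered by expression, scaled by TMM and fitted with all 3 genotypes in edgeR 4.0.16 (R 4.3.3; robust quasi-likelihood). Benjamini-Hochberg adjustment covered all 17094 genes tested. A call was an adjusted p of 0.1 or below, with and without a change of at least 1 on the log2 scale, the thresholds that the study states. CPM used the same scaling. Exon lengths came from GENCODE vM21. Correlations used log2(CPM + 0.5) and 100000 permutations within genotype, and the Dsg1 check log2(CPM + 1) with an exact permutation test. DESeq2 1.42.0 and limma 3.58.1 were alternatives. Tests were checked on simulated data. Named were all members, other pathway genes at an adjusted p of 0.1 or below or among the 3 smallest p of their list in KO vs WT, and the 5 genes most like the member of smallest p. The members and lists were chosen with earlier results of these data known.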

Additional observations from a re-analysis of the deposited data

Results flagged for a closer look

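Some groups of 5 held 1 replicate apart from the others, with a gap to its neighbour that took up an unusually large share of the group's range. This happened in 7 of the 72 groups examined, where 1 in 20 would be 3.6. The groups share columns, so they are not independent of each other. All 7 were groups of members or named pathway genes. Dusp5 in WT had a share of 0.721, since WT replicate 4 was at 20.8 CPM and the next at 12.8 CPM. Dusp5 in HET had 0.739, with HET replicate 2 at 14.6 CPM and the next at 10.9 CPM. Epgn in HET had 0.771, with HET replicate 2 at 4.20 CPM and the next at 2.12 CPM. Braf in HET had 0.760, with HET replicate 4 at 43.8 CPM, and Braf in KO had 0.722, with KO replicate 1 at 47.7 CPM. Erbin (Erbb2ip) in WT had 0.762, with WT replicate 4 at 207 CPM, and in HET 0.944, with HET replicate 4 at 215 CPM and the next at 168 CPM. In every case the lone replicate was the highest of its group.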

How the results depend on the processing

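Over 28 alternatives, Dusp4 in KO vs WT ran from 0.39 to 0.87 on the log2 scale with adjusted p from 0.0201 to 0.567, Phlda1 from 0.29 to 0.41, and Spry2 from -0.47 to -0.20, all keeping their direction. The number of members higher at an adjusted p of 0.1 or below was 0 in KO vs WT as reported, beside 197 of all genes in either direction. It was 2 with DESeq2 (1444 of all genes), 1 with limma-voom (506) and 2 with RLE factors (360). With the 15 libraries of the longer title form alone it was 1 (370). Keeping title number 35 as 2 columns gave 2 (1195), and the skeletal muscle covariate gave 2 (654). With 1 replicate left out the number was 0 to 3, and the count of all genes in those fits is not given here. In KO vs HET the number was 2 with DESeq2 (787 of all genes against 57). With 1 replicate left out it was 0 to 2, again without the count of all genes. HET vs WT gave 0 throughout. Direction turned in KO vs WT for Dusp5 (-0.030) and Dusp6 (-0.039) with the keratinocyte covariate, Dusp6 (-0.00045) and Spry1 (0.025) with the dermal fibroblast covariate and Dusp6 (-0.076) with the 9 libraries of the shorter title form alone. With those 9 libraries, HET vs WT turned for Dusp4 (-0.13), Etv4 (0.025), Errfi1 (-0.11) and Phlda1 (-0.10). HET vs WT also turned for Dusp4 with limma-voom (-0.00078), the Y-linked covariate (-0.0014) and the dermal fibroblast covariate (-0.047), and KO vs HET for Spry4 with the keratinocyte covariate (0.094). With 1 replicate left out, KO vs WT ran from -0.0089 to 0.11 for Dusp6 and from -0.11 to 0.049 for Spry1, HET vs WT from -0.047 to 0.10 for Dusp4, -0.059 to 0.13 for Errfi1, -0.030 to 0.077 for Phlda1 and -0.17 to 0.029 for Etv4, and KO vs HET from -0.16 to 0.032 for Spry4. The causes were not tested. No paired analysis was possible because the title numbers are not shared between genotypes. Without title number 35 and with RLE factors, 2 pairs of members passed by Pearson correlation, as reported, whereas 0 passed by rank. The Dsg1 p-values did not change.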
